A study of Homo sapiens with 6 samples.

Results

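The mRNAs of DEK and of 6 other acidic histone chaperones (SET, ANP32A, ANP32B, ANP32E, NPM1 and NAP1L1) were examined in RNA recovered with CELF1, an RNA-binding protein, from melanoma cells. Members were chosen by name. Their data are all listed 20-bp bins whose centre lay in an annotated exon of these 7 genes on the transcript strand, namely 860 of 816781 bins in SK-Mel-103, 678 of 780750 bins in UACC-62 replicate 1 and 748 of 862731 bins in UACC-62 replicate 3. DEK accounted for between 89 and 124 of them in a sample. The annotation held 20176 protein-coding genes in all.

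CELF1 (also CUGBP1) was immunoprecipitated with one antibody (Abcam ab9549) from formaldehyde-fixed cells, and the RNA that came down (IP) was sequenced beside RNA of the lysate (input). SK-Mel-103 and UACC-62 are established human melanoma lines, grown in culture. A single IP sample stood for SK-Mel-103, without replicates, and 2 stood for UACC-62, labelled 1 and 3. Peaks had been called in each of them with the matching input as covariate. Nothing in the labels says whether the UACC-62 replicates were separate cultures.

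Histone chaperones are mostly acidic proteins that hold the basic histones while nucleosomes are built or taken apart. DEK is a chromatin protein with such activity and is often abundant in tumours. SET masks histone tails from acetylation and inhibits the phosphatase PP2A. The ANP32 proteins are a leucine-rich, acidic family, of which ANP32E removes the variant H2A.Z. NPM1 (nucleophosmin) acts in the nucleolus, and NAP1L1 carries histones H2A and H2B. CELF1 is known for binding GU-rich elements, mostly in 3′ UTRs, where it affects the decay and translation of mRNAs.

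Depth, summed over the lists, ran from 10958459 to 14436573 IP reads and from 8453517 to 10161917 input reads per sample. Unless stated otherwise, values are given for SK-Mel-103, UACC-62 replicate 1 and UACC-62 replicate 3, in that order. Only bins that passed the peak caller at p-values under 0.05 were listed. Every ratio therefore depends on passing, and input outside these bins is unknown. IP over input was the ratio of IP reads to input reads, each divided by the total of its list after adding 1 read, on the log2 scale. In 4574 protein-coding genes with at least 10 listed 3′ UTR bins in every sample, its median was 0.06, −0.36 and −0.10. The zero of this scale depends on the totals used, and the sign of values near 0 can turn with another total, as given with the values concerned. Lengths and regions are unions over all annotated transcripts. Of 8 melanocyte lineage genes, 3, 6 and 6 had listed input reads (900, 15728 and 11980 in sum), SOX10 in every sample. TYR, DCT and S100B had none in SK-Mel-103, and PMEL and TYRP1 had none in any sample. Of 4 keratinocyte and 4 fibroblast genes, 1 each (KRT10 and LUM) had listed input reads. As whole cultures were lysed, fewer cells with a transcript and less of it per cell cannot be told apart.

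DEK lies on the minus strand (chr6:18224091-18264779, GRCh37). Its reads concentrated in the 3′ UTR. All 26 DEK peaks common to the 3 samples, meaning bins with more than 30 IP reads in each, fell there and none in the coding region. Of all genes with an annotated 3′ UTR, 8.36% had such a peak in it. No common DEK peak had a log2 IP over input above 0 in all 3 samples, and the highest lowest value was −0.21. The 3 bins with the most IP reads in their lowest sample are printed, chosen by IP reads and not by their ratio to input. They lie in exon 10, in the 3′ UTR, 522, 462 and 382 nt past the last coding base, and are written 5′ to 3′ as RNA of the transcript strand, with each UGU in capitals.
DEK chr6:18225421-18225440, minus strand: uggaacuuuucuccugcaug
DEK chr6:18225481-18225500, minus strand: agcggcagUGUGUccaucau
DEK chr6:18225561-18225580, minus strand: ccaggauuuauacauacaga

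The first of these bins held 304, 87 and 120 IP reads against 174, 97 and 94 input reads. In SK-Mel-103 its log2 IP over input was 0.43 (95% interval 0.16 to 0.71). The UACC-62 values were −0.31 (−0.75 to 0.12) and −0.35 (−0.75 to 0.06). The intervals are exact Clopper-Pearson intervals on IP among IP plus input reads and cover counting error only, here and below. This bin therefore lay above the list average in SK-Mel-103, while both UACC-62 intervals included 0. The second bin, the only one of the 3 with the letters UGUGU, held 290, 69 and 144 IP reads against 208, 111 and 97 input reads. The last of them had 280, 69 and 131 IP reads against 133, 100 and 97 input reads. In all 3 bins, SK-Mel-103 had the highest ratio.

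In the whole DEK 3′ UTR, 78, 65 and 71 bins were listed with 6469, 1802 and 3796 IP reads and 4844, 3039 and 2843 input reads. Log2 IP over input was 0.04 (95% interval −0.01 to 0.10) in SK-Mel-103, −0.91 in UACC-62 replicate 1 and −0.28 in replicate 3, a mean of −0.60 ± 0.45 (SD, n = 2) in UACC-62. The DEK 3′ UTR was thus recovered at about the list average in SK-Mel-103 and below it in both UACC-62 replicates. Scaled to reads in exons of protein-coding genes, the values were 0.22 in SK-Mel-103 and −0.42 as the UACC-62 mean. Without division by totals, replicate 3 turned positive, as its IP reads outnumbered its input reads, whereas replicate 1 stayed negative. Among the 4574 genes, 49.6%, 33.3% and 44.4% had a lower 3′ UTR value than DEK in the 3 samples. Of the 64 DEK 3′ UTR bins listed in all samples, 44 were above 0 in SK-Mel-103, 7 in UACC-62 replicate 1 and 23 in replicate 3, and 5 in all.

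In the DEK coding region, 37, 23 and 31 bins were listed with 948, 229 and 504 IP reads against 2027, 1014 and 863 input reads. Log2 IP over input was −1.47, −2.30 and −1.47, with a UACC-62 mean of −1.89 ± 0.58 (SD, n = 2). Only 8.67%, 9.15% and 26.2% of the 3564 genes with 10 coding bins had a lower coding value in the respective samples. The 3′ UTR exceeded the coding region by 1.51, 1.39 and 1.19 on the log2 scale, a mean difference of 1.36 ± 0.16 (SD, n = 3) or 2.57-fold. It was the higher region in 3 of 3 samples, and the difference exceeded the spread between samples. The exact sign-flip permutation test (2-sided) gave p = 0.25, the smallest p that 3 samples allow.

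**Figure D1:**
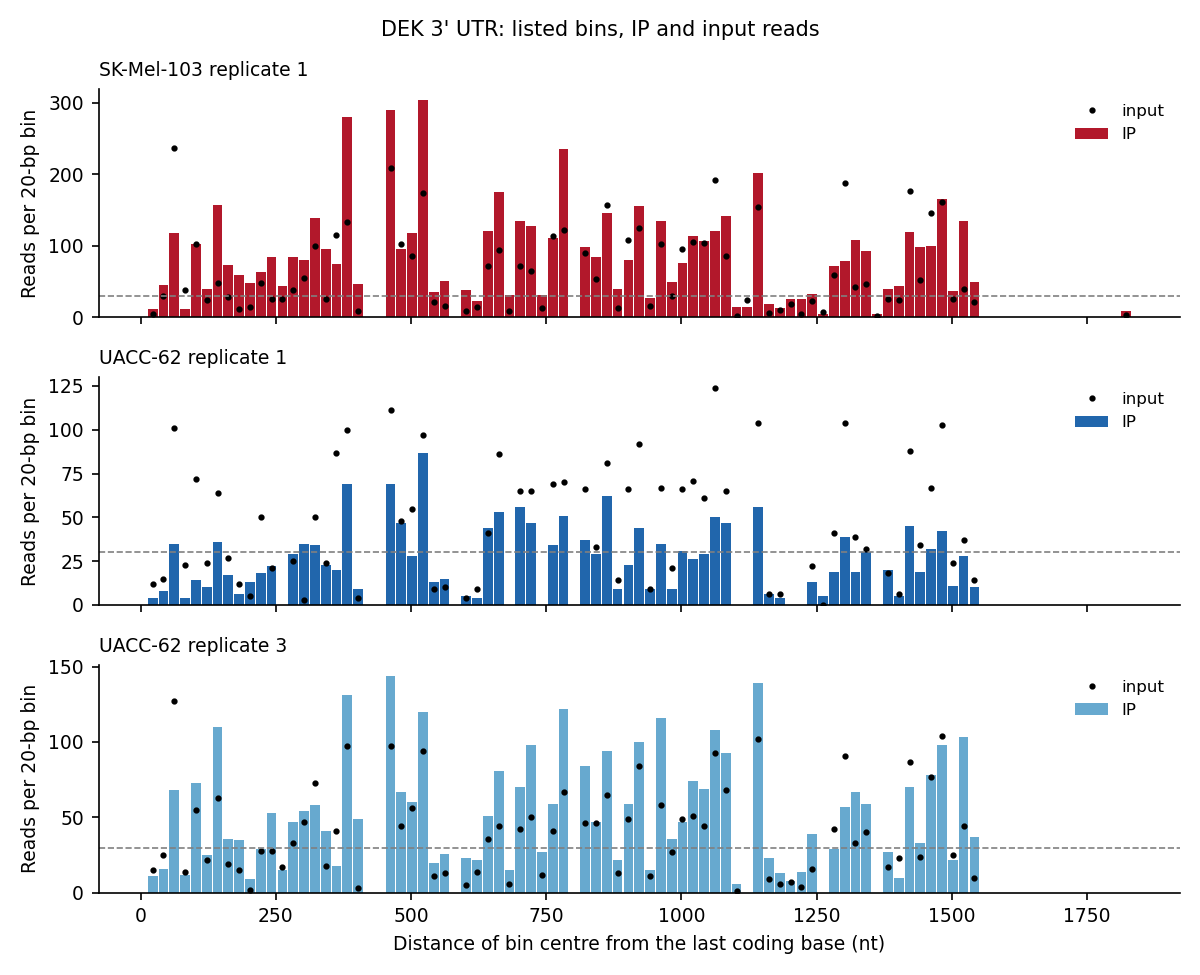
Reads per listed 20-bp bin of the DEK 3′ UTR (bars, IP; dots, input) by the distance of the bin centre from the last coding base, in nt, with 1 panel per sample and a dashed line at 30 reads. Reads are not scaled to the list totals. IP bars stand above the input dots in most bins of SK-Mel-103 and UACC-62 replicate 3, and below them in most bins of UACC-62 replicate 1. The replicate 3 list held 14436573 IP reads and only 8900292 input reads. After scaling, 23 of 64 shared bins were above 0 in replicate 3, compared with 44 in SK-Mel-103.

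Along the DEK 3′ UTR, IP reads were spread rather than gathered at a single site. The median IP read past the stop codon lay 742, 762 and 822 nt from the last coding base, and common peaks ran from 62 to 1482 nt. In windows of 500 nt, SK-Mel-103 gave a log2 IP over input of 0.14, 0.20 and −0.31 for the first 3 windows. UACC-62 replicate 1 gave −0.91, −0.73 and −1.13, and replicate 3 gave −0.38, −0.08 and −0.47. In all 3 samples the second of these windows was the highest and the third the lowest, by less than the gap between UACC-62 replicates in each window. The few bins between 1501 and 2000 nt gave 0.99, −0.76 and 0.33 from 228, 49 and 162 IP reads. Across the 64 shared bins, Pearson's r of log2 IP reads was 0.91 for SK-Mel-103 with UACC-62 replicate 1, 0.88 with replicate 3, and 0.85 for the UACC-62 replicates with each other. Bins of one transcript share their depth, and the ratio of IP to input was less alike (r = 0.54, 0.67 and 0.46).

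The DEK coding bin with the most IP reads in its lowest sample lies in exon 7 (chr6:18237641-18237660), and held 53, 20 and 26 IP reads against 118, 55 and 41 input reads. No listed DEK coding bin had more than 30 IP reads in UACC-62 replicate 1, while UACC-62 replicate 3 had 2 such bins and SK-Mel-103 had 13. A coding bin of exon 5 had 63 IP reads and no input read in SK-Mel-103 and was listed in no UACC-62 sample. A listed input of 0 can differ between samples, as in a SET coding bin with 0, 0 and 150 input reads (chr9:131456061-131456080). Whether the DEK bin marks binding was not tested. The exon 7 and exon 5 bins of DEK are shown beside the 3′ UTR bins above, on the same strand and with UGU in capitals.
DEK exon 7, chr6:18237641-18237660, minus strand: aaagcagauagcagcaccac
DEK exon 5, chr6:18256061-18256080, minus strand: uuagaaaugccaUGUuaaag

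The 3′ UTR exceeded the coding region in every member gene and every sample. Among the 5 members with at least 10 bins in both regions in each sample (DEK, SET, ANP32A, NPM1 and NAP1L1), this makes 5 of 5, beside 72.8% of all 2581 such genes. The median difference of those 2581 genes was 0.60, 0.65 and 0.54 in the 3 samples. ANP32A (1.84, 2.79 and 2.63) and NAP1L1 (2.23, 2.53 and 1.89) had the widest differences among the members. The mean difference of NPM1 (1.36, 1.65 and 1.19) differed from that of DEK by less than their spread. SET (0.30, 0.69 and 0.45) had the lowest mean of the 3 samples, 0.48 ± 0.20 (SD, n = 3). The median coding value of all 7 members was −1.35, −1.82 and −1.47, below that of the genes with at least 10 coding bins (−0.70, −1.15 and −0.88). The members' median 3′ UTR value of −0.05, −0.91 and −0.50 was also below that of the genes with at least 10 bins there (0.06, −0.36 and −0.10). The sets are unlike, as ANP32B and ANP32E lacked 10 coding bins in some samples, and ANP32B lacked 10 bins in the 3′ UTR too.

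**Figure D2:**
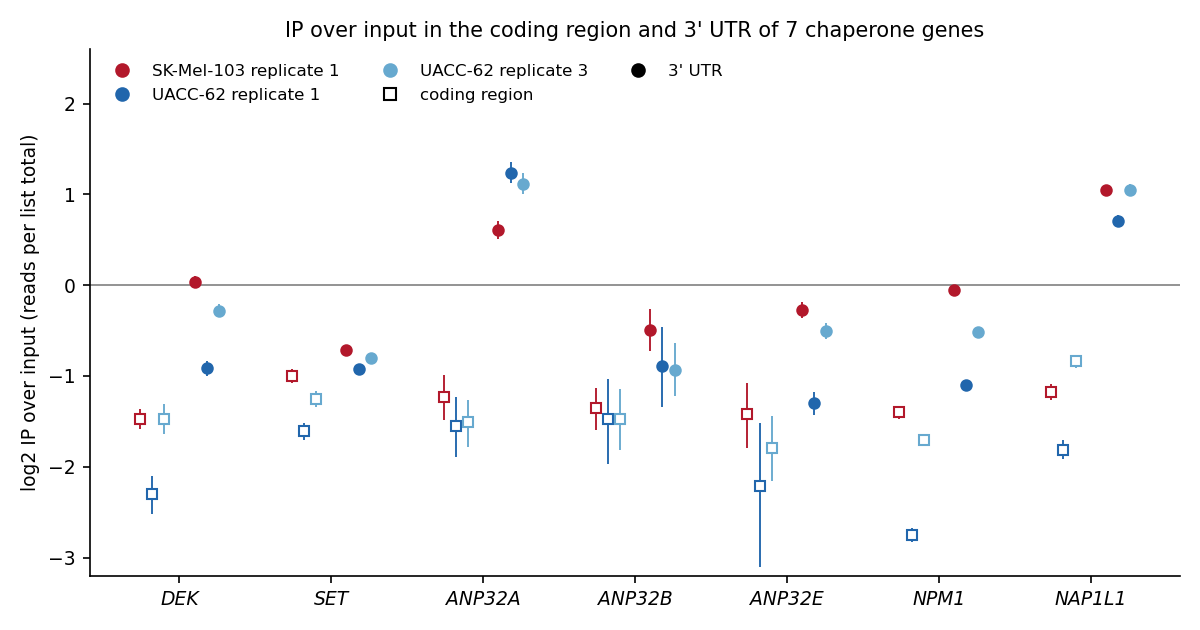
Log2 IP over input of the coding region (open squares) and of the 3′ UTR (filled circles) for each gene and sample, where bars are exact 95% counting intervals. Every circle lies above the square of the same gene and sample, and only ANP32A and NAP1L1 have all 3 circles above 0.

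The ANP32 family split by recovery. In the 3′ UTR of ANP32A (chr15:69070874-69113236, minus strand), 2546, 2254 and 2578 IP reads stood against 1288, 854 and 730 input reads. Its log2 IP over input was 0.61, 1.24 and 1.12, with a UACC-62 mean of 1.18 ± 0.09 (SD, n = 2), and was above 0 in 3 of 3 samples. Its coding region gave −1.23, −1.55 and −1.51 from 213, 106 and 194 IP reads.

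ANP32E (chr1:150190717-150208504, minus strand) had 2424, 775 and 2430 IP reads in the 3′ UTR, against 2262, 1712 and 2125 input reads. Its 3′ UTR values of −0.27, −1.30 and −0.50 were below 0 in each sample, although those of SK-Mel-103 (0.10) and UACC-62 replicate 3 turned positive without division by totals. No bin of ANP32E exceeded 30 IP reads in UACC-62 replicate 1, while replicate 3 had 31 such bins and SK-Mel-103 had 29, so that it had no common peak. ANP32B (chr9:100745623-100778225, plus strand) was the least covered member, with 296, 72 and 183 IP reads in its 3′ UTR and values of −0.49, −0.89 and −0.93. At that depth its counting intervals were wide (−0.72 to −0.26, −1.34 to −0.46 and −1.22 to −0.64). ANP32A was above ANP32B and ANP32E in every sample by more than the gap between the UACC-62 replicates of either gene.

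Among the common peaks of ANP32A, the one with the highest IP over input in its lowest sample lies 1512 nt past the last coding base. It held 78, 61 and 59 IP reads against 14, 8 and 8 input reads, that is 2.02, 2.63 and 2.04 on the log2 scale. It is printed as the common peak with the highest ratio, although 2 bins with fewer IP reads had a higher lowest ratio (2.30 and 2.29).
ANP32A chr15:69070901-69070920, minus strand: uaugguugaaaacucaggaa
IP over input of ANP32A was 0.39, 0.55 and 0.67 in the first 500 nt and 1.08, 1.88 and 1.49 between 1001 and 1500 nt, higher in the later window in 3 of 3 samples.

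NAP1L1 (chr12:76430365-76478515, minus strand) was the other gene above 0. Its 3′ UTR held 14288, 6264 and 10700 IP reads against 5312, 3424 and 3189 input reads. Log2 IP over input was 1.05, 0.71 and 1.05 (UACC-62 mean 0.88 ± 0.24, SD, n = 2). Although 3′ UTRs annotated for NAP1L1 cover 12593 nt, 94.9%, 96.8% and 96.8% of their IP reads lay in the first 2500 nt past the main stop codon. There the ratio rose and fell in each sample, from 0.54, −0.05 and 0.69 in the first 500 nt to 1.84, 1.60 and 1.72 between 1001 and 1500 nt and 0.76, 0.18 and 1.13 between 2001 and 2500 nt. The NAP1L1 peak with the highest ratio in its lowest sample lies in the highest window, 1041 nt past the last coding base, with 153, 54 and 66 IP reads against 9, 7 and 5 input reads.
NAP1L1 chr12:76441161-76441180, minus strand: cUGUuuucuuuuaaaaaaaa

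**Figure D3:**
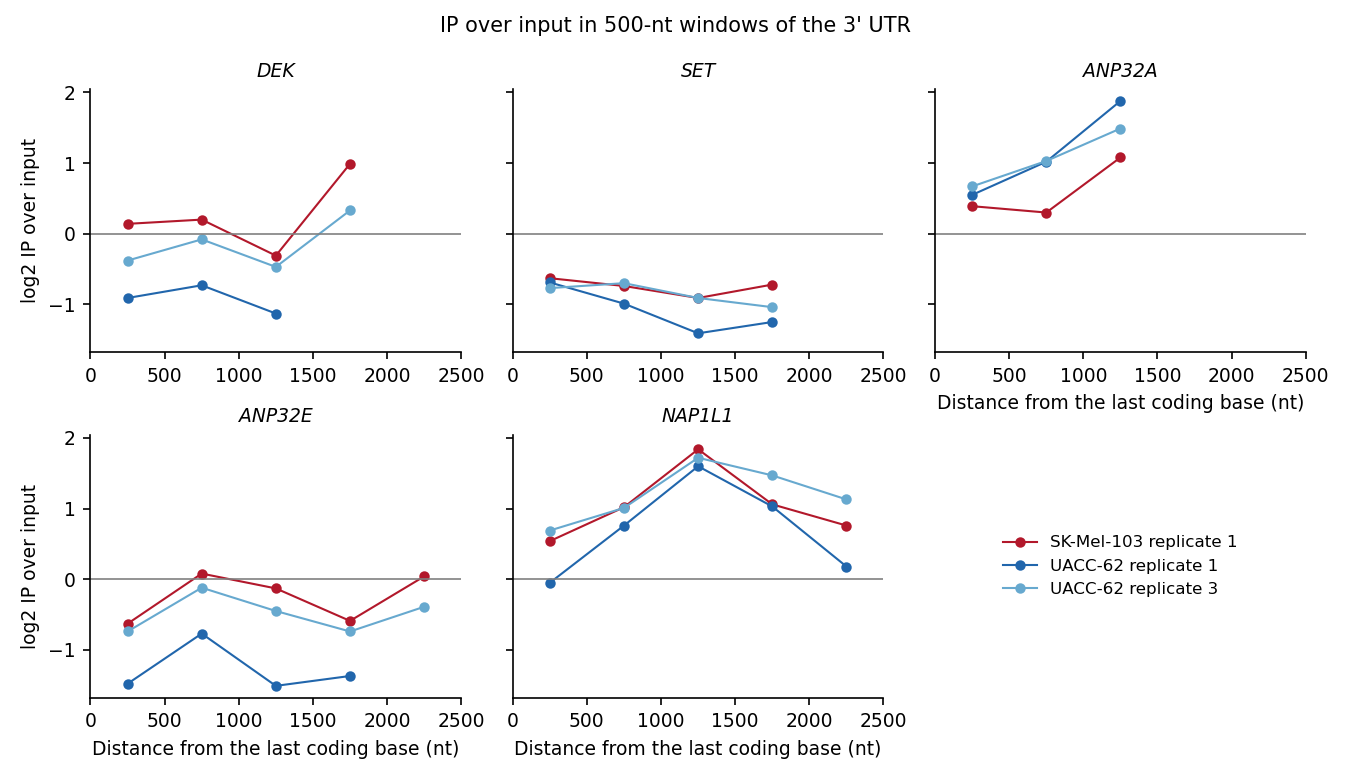
Log2 IP over input in windows of 500 nt, by distance from the last coding base in nt, for samples with at least 100 IP reads in the window. Among the windows drawn, NAP1L1 and ANP32A are highest between 1001 and 1500 nt in all 3 samples, whereas DEK, SET and ANP32E stay below 1. The ANP32A window from 1501 nt, not drawn, was higher still in all 3 samples (1.75, 2.68 and 1.55, from 99, 85 and 75 IP reads).

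SET (chr9:131445703-131458679, plus strand) had 8883, 6109 and 8026 IP reads in the 3′ UTR against 11180, 10376 and 8612 input reads. Its values of −0.71, −0.92 and −0.80 were the most even among the members, with a UACC-62 mean of −0.86 ± 0.09 (SD, n = 2). As a level per length of the union over transcripts, the SET 3′ UTR had 3896, 2679 and 3520 IP reads per kilobase, compared with 1803, 502 and 1058 for DEK. These unions are 2280 nt for SET and 3588 nt for DEK. In the transcript with the main stop codon, the 3′ UTR has 1739 nt in SET and only 1505 nt in DEK. Nearly all 3′ UTR IP reads of both genes lay past that stop, so part of the gap comes from annotated length. Its ratio to input was nevertheless lower than that of DEK in SK-Mel-103 and UACC-62 replicate 3, and within 0.01 of it in UACC-62 replicate 1. SET was the more abundant of the pair in the listed input as well.

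NPM1 (chr5:170814120-170838814, plus strand) had 8282, 5545 and 11373 IP reads in 3′ UTRs against 6597, 10634 and 10079 input reads, with values of −0.05, −1.10 and −0.52. The first of these turned to 0.13 when scaled to reads in exons and to 0.33 without division by totals, where UACC-62 replicate 3 turned positive too. The union of NPM1 3′ UTRs also holds sequence before the main stop codon. Of its IP reads, 91.2%, 88.9% and 89.3% lay past that stop. In the first 500 nt past the stop, NPM1 gave 0.09, −0.86 and −0.29. Its coding region had the lowest value of all members in UACC-62 replicate 1 (−2.75, from 1484 IP and 8932 input reads), while SK-Mel-103 gave −1.40 and UACC-62 replicate 3 gave −1.71. The NPM1 peak with the most IP reads in its lowest sample held 1248, 709 and 1520 IP reads against 616, 775 and 672 input reads, 245 nt past the last coding base (chr5:170837801-170837820). In distance over the 6 values of both regions and 3 samples, NPM1 (0.60) and ANP32E (0.64) were the members nearest to DEK, and ANP32A (2.75) the farthest. The ANP32E distance rests on only 4 listed coding bins in UACC-62 replicate 1.

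In all, 5 of the 7 genes had a common peak in the 3′ UTR. These were NAP1L1 with 64, SET with 52, DEK with 26, ANP32A with 24 and NPM1 with 21 (15 past the main stop). Beside the 8.36% of all genes given above, such peaks occurred in the 3′ UTR of 31.3% of the 4574 genes with 10 listed bins, so that genes with more listed bins had them more often. Coding regions held common peaks in NPM1 (17), SET (15) and NAP1L1 (14), that is in 3 of 7 genes beside 2.78% of all genes and 13.7% of the 3564 genes with 10 coding bins. Of the 233 common peaks in exons of the members, 187 lay in 3′ UTRs and 46 in coding regions. None lay in a 5′ UTR. The DEK count depended on UACC-62 replicate 1, since 45 DEK bins passed in both of the other samples. At more than 100 IP reads per bin, DEK had no common peak.

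Between the lines, 5 of the 6 members with 10 listed 3′ UTR bins were higher in SK-Mel-103 than in both UACC-62 replicates, beside 55.6% of all genes, and ANP32A was lower, beside 21.5%. The differences from the UACC-62 mean were 0.76 for NPM1, 0.64 for DEK, 0.63 for ANP32E, 0.17 for NAP1L1, 0.15 for SET and −0.57 for ANP32A, on the log2 scale. The median of all genes was 0.25, with quartiles of −0.11 and 0.54. The lines were not tested against each other, as SK-Mel-103 had 1 sample, and the SD of the UACC-62 pair was 0.45 for DEK, 0.41 for NPM1 and 0.56 for ANP32E. For ANP32A it was 0.09. Over all genes UACC-62 replicate 1 minus replicate 3 had a median of −0.21. Over the union of their 3′ UTRs, SET, ANP32E and NPM1 were below 0 in all samples (3 of 6, beside 44.2%). For ANP32E and NPM1 the changes of sign given above apply. ANP32A and NAP1L1 were above 0 in all samples (2 of 6, beside 38.1%).

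GU-rich elements were counted as 11-nt stretches within 2 mismatches of UGUGUGUGUGU or UGUUUGUUUGU, the pair given by the study's methods, on the transcript strand only and with overlapping matches merged. The DEK 3′ UTR held 1 such element, and 55.3% of the 19708 3′ UTRs scanned held at least 1. It lies 1397 nt past the last coding base, and its bin held 43, 5 and 10 IP reads against 24, 6 and 23 input reads. No common DEK peak overlapped it, 2 of 26 lay within 50 nt and 4 within 100 nt. The paper marks more GU-rich elements in the DEK 3′ UTR than this count gave, and reports CELF1 binding to its central part. ANP32E held 6 elements (6.8% of 3′ UTRs hold as many), ANP32A 3, SET and NPM1 2 each, NAP1L1 11 in its longer annotated sequence, and ANP32B none. Over all genes, 3.19% of the listed 3′ UTR bins overlapped an element, compared with 2.49% of all 3′ UTR bins.

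Elements of DEK and ANP32A are shown with the matched letters in capitals and 4 bases on either side, to set the single DEK element beside one that overlapped a common peak in ANP32A.
DEK chr6:18224546-18224556, minus strand: cacaGGUUUGUUUCUugau
ANP32A chr15:69071279-69071289, minus strand: uuuaUGUCUGUUUGUcauu

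At the ANP32A element, 101, 36 and 92 IP reads stood against 11, 10 and 7 input reads. The 4 ANP32A bins on elements had a log2 IP over input of 2.58, 2.18 and 2.71, compared with 0.55, 1.22 and 1.07 in its other 3′ UTR bins. The 8 NAP1L1 bins on elements differed from its other 3′ UTR bins by −0.05, −0.15 and −0.49. In SET, 2 common peaks overlapped an element, and bins on elements (−0.49, −0.87 and −0.78) were near the rest (−0.73, −0.93 and −0.80). The 7 ANP32E bins on elements gave 0.42, −1.17 and −0.14, compared with −0.33, −1.31 and −0.53 in the rest. In NPM1, 2 bins on an element had ratios 2.48, 2.75 and 3.41 above the rest, from at most 13 IP reads. The single DEK bin differed from the rest by 0.40, 0.53 and −1.55, also from few reads. Bins on elements were thus above the rest in all 3 samples in ANP32A, by at least 0.96, in ANP32E, in NPM1 and, by as little as 0.02, in SET, and below the rest in all 3 in NAP1L1. The ANP32A elements with listed bins lie 1134 and 1474 nt past the last coding base. Its ratio was also high in the whole window from 1001 to 1500 nt (1.08, 1.88 and 1.49). Position was not separated from elements. The NPM1 bins lay near the lowest count listed, 4 IP reads per bin. Over all genes this contrast was not computed.

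The shorter letters UGU occurred in 9 of 26 common DEK peaks (34.6%), beside 43.3% of all bins of the DEK 3′ UTR, and in 29 of 64 NAP1L1 peaks (45.3%, beside 34.9%). The shares were 46.2% beside 39.5% in SET, 42.9% beside 33.3% in NPM1 and 37.5% beside 34.2% in ANP32A, so that of the 5 genes with common peaks in the 3′ UTR only DEK had a lower share in them. G and U together made up 50% of the letters in the common DEK peaks and 53.6% over its 3′ UTR. The shares set beside them cover all annotated 3′ UTR bins, of which only 79 of 180 were listed in any sample in DEK and 232 of 630 in NAP1L1. The share of UGU among listed bins was not computed. No call was made on these shares, as neighbouring bins are not independent.

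Of 30 other histone chaperone genes, listed by name, 7 had a common peak, beside 8.75% of all protein-coding genes. All 7 had one in the 3′ UTR and were among the 17 with 10 listed 3′ UTR bins. Of all 4574 genes with that many bins, 31.3% had a common peak there. RBBP4, which binds histone H4 in several chromatin complexes, had 48 and gave 1.42, 2.26 and 1.93 in its 3′ UTR, above every member. NCL (nucleolin) had 37, of which 21 lay in the coding region. PTMA (prothymosin alpha) had 33 and 3′ UTR values of −0.14, −0.92 and −0.05. SUPT16H, a subunit of FACT, had 13, ATRX, a chromatin remodeller that deposits histones with DAXX, had 6, and RBBP7 had 3. The other gene with a common peak was MCM2, a subunit of the replicative helicase, which had 1. The median 3′ UTR value of the 17 genes with 10 listed bins was −0.14, −0.53 and −0.33. Of 11 with 10 bins in both regions, 9 had the 3′ UTR above the coding region in all samples, beside 72.8% of all such genes.

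**Figure D4:**
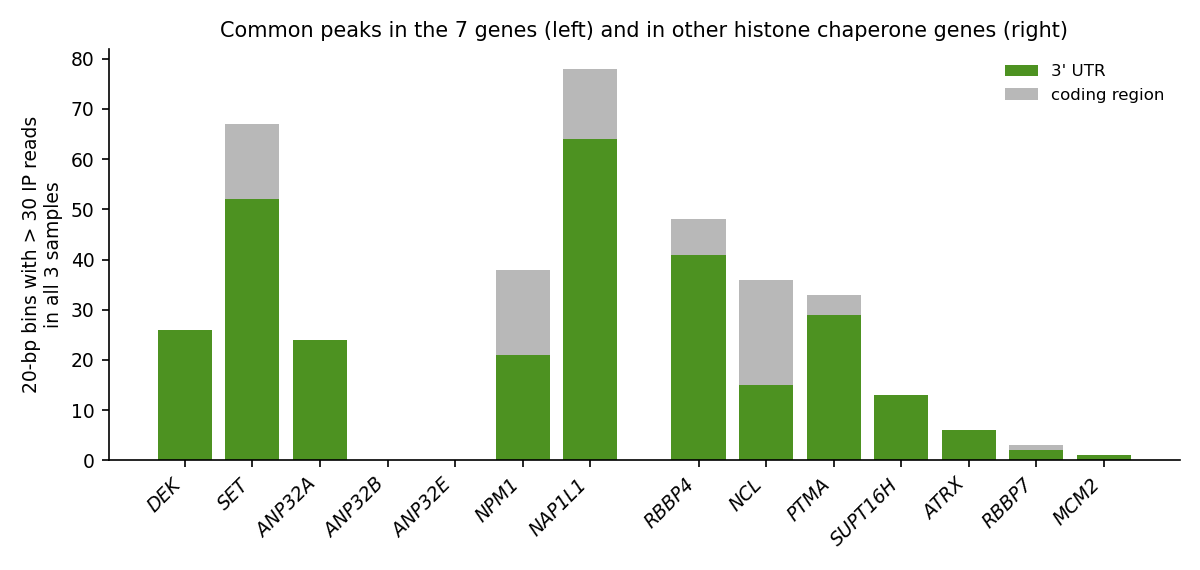
Number of 20-bp bins with more than 30 IP reads in all 3 samples, in the 3′ UTR (green) and coding region (grey), for the 7 genes and for the other histone chaperone genes with any. DEK (26) and ANP32A (24) have such bins in the 3′ UTR only, whereas SET, NPM1 and NAP1L1 also have them in the coding region, and ANP32B and ANP32E have none.

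The pattern of DEK was shared by genes of other functions. Among 2576 genes with 10 bins in both regions, the nearest over the 6 values were SRP72 (a distance of 0.45), a protein of the signal recognition particle, ETF1 (0.48), a translation release factor, GRSF1 (0.51), an RNA-binding protein, DNAJA2 (0.51), a co-chaperone, and ARHGAP5 (0.52). SRP72 gave 0.14, −1.03 and −0.52 in the 3′ UTR and −1.39, −1.96 and −1.45 in the coding region. Of these genes, 0.427% were nearer to DEK than NPM1 and 0.543% nearer than ANP32E, whereas 59.8% were nearer than ANP32A. ANP32E itself lacked the 10 coding bins asked of these genes.

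Reads could be shared with copies of these genes, as up to 20 alignments per read were allowed by the authors. No copy of DEK or ANP32E is annotated under their names. For NPM1, with 49 annotated copies, 3.03%, 2.98% and 3.71% of the IP reads of gene and copies lay in the copies, nearly all in NPM1P7 (341, 227 and 581 IP reads). For SET, ANP32A, ANP32B and NAP1L1 the share was at most 1% in any sample. Reads discarded for having more alignments are unknown. On the opposite strand of their exons, the members had at most 39 IP reads in any sample.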

How the data were processed

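Peak lists of 3 CELF1 RIP-Seq samples were used (UACC-62 replicates 1 and 3, SK-Mel-103 replicate 1), grouped by their titles. Input was read from the covariate within each list. RNA was depleted of ribosomal RNA and sequenced as 40-nt single-end reads, although the labels also call the IP RNA poly A+. Alignment by the authors was to GRCh37 with TopHat (Bowtie, SAMtools). The submitters' processing notes name TopHat2 2.0.4, Bowtie 0.12.7 and SAMtools 0.1.16, which differ from the versions in the paper. The authors called peaks per sample with Piranha in bins of 20 bp.

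The deposited counts are whole IP reads per passing bin, without normalization. Each deposited p-value is the caller's, and whether it was corrected is not stated. The ratio in the last deposited column is the input covariate of the authors' model, in whole multiples of a smallest step, from which input reads were recovered (100% within 0.05 of a whole number). Bins without input (9.69%, 15.9% and 29.2% of the lists) carry 0.01, which equals 171, 388 and 326 input reads in the 3 samples, so such bins were modelled as if rich in input. The authors' filter of more than 30 reads is not applied in the lists.

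The listed strand was reversed to give the transcript strand. A bin centre took the first region that held it (3′ UTR, then coding, 5′ UTR, other exon) over all transcripts of GENCODE version 44 mapped to GRCh37. Sequences came from the GRCh37 genome. The stop codon of a gene was the one shared by most of its coding transcripts. The region difference was tested by an exact sign-flip permutation test over samples. When the differences of all 3 samples have the same sign, this exact permutation test returns its smallest possible p-value, whatever their spread. It treats the SK-Mel-103 sample and the UACC-62 replicates as interchangeable. Members and gene lists were chosen with earlier results of these data known. Genes named beside the members are the 6 on the chaperone list with most common peaks, the 5 nearest to DEK and the copies with most reads, and MCM2 was added after its value was seen. In tests on made-up bins, input reads of 50000 of 50000 bins, 400 of 400 planted elements, and the differences set in 200 of 200 changed genes (within 0.25) were recovered. Alternatives covered read, p-value and pseudocount settings, totals, region order, transcripts, strand, input pairing and each UACC-62 replicate. Software was matplotlib 3.10.9, scipy 1.17.1, pandas 2.3.3 and numpy 2.4.6 under Python 3.11.15. Some items are not reported here.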

Additional observations from a re-analysis of the deposited data

Results flagged for a closer look

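The 3′ UTR of DEK stood above 0 in SK-Mel-103 (0.04) and below it in both UACC-62 replicates (−0.91 and −0.28), a difference of 0.64 from the UACC-62 mean on the log2 scale that was not tested, and the counting interval of the SK-Mel-103 value included 0. Replicate 3 turned positive when reads were not divided by totals. The same opposition held in its first 500 nt (a difference of 0.79) and between 501 and 1000 nt (0.60). It also appeared in the 3′ UTR of SRP72 (0.91), GRSF1 (0.61) and NCL (0.46), and with the opposite sign in the coding region of RBBP4 (−0.52). None of these differences was tested.

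Introns were outside the comparisons. Listed intron bins of DEK, ANP32A, ANP32B and NAP1L1 had IP over input above 0 in every sample, while those of SET (between −1.53 and −0.87) and NPM1 (−0.45, −0.47 and −0.79) were below 0. The share over all genes was not computed. DEK had 111, 46 and 66 IP reads in 21, 10 and 13 intron bins, near the lowest count listed (4 IP reads per bin). As only passing bins are listed, a ratio above 0 in such sparse sequence cannot be separated from the listing. The lowest of the 3 samples was 0.79 for DEK, from 111 IP reads and 49 input reads in SK-Mel-103. It was 1.47 for ANP32A, 0.54 for ANP32B and 0.53 for NAP1L1. NAP1L1 introns had 360, 349 and 140 listed bins with 2758, 3210 and 798 IP reads against 1471, 695 and 117 input reads, of which 1, 4 and 0 bins exceeded 30 IP reads.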

How the results depend on the processing

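The difference of 1.36 between the DEK 3′ UTR and coding region kept its direction under all 11 alternatives that gave a value, which ranged from 1.35 to 1.45, but the 2 changes of totals act on both regions alike and could not move it. It was 1.36 with no replicate block, when each UACC-62 IP sample was set against the mean of both inputs. It was 1.35 and 1.45 without UACC-62 replicates 1 and 3, respectively. Leaving out a replicate could not turn its direction, as the value of every sample was positive. With bins of more than 30 IP reads only, it gave no value, as UACC-62 replicate 1 has no such coding bin. In the other 6 genes, all 69 alternative values stayed above 0 (0.18 to 2.57). They include values with other totals or without a replicate, which could not turn there either. For single regions, a UACC-62 mean without 1 replicate cannot move by more than the SD of the pair. Such values are among the 228 of 285 alternative values that moved by less than the spread or counting interval, while 56 moved by more. The remaining one was the ANP32E 3′ UTR in SK-Mel-103, which changed sign (0.10) when reads were not divided by totals. The NPM1 3′ UTR in SK-Mel-103, whose counting interval reached 0, also turned positive (0.13 with exon totals and 0.33 undivided). Undivided, single values of DEK, ANP32E and NPM1 in UACC-62 replicate 3 turned positive as well. The setting with bins without input left out was chosen after seeing the data.

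Counts depended on the read filter. Without it, 27 of the other chaperone genes had a common peak and DEK had 64, of which 1 overlapped its GU-rich element, and with more than 100 IP reads these counts were 4 and 0. Leaving out either UACC-62 replicate gave between 26 and 45 common DEK peaks. Without reversal of the strand, the members, the other chaperones and DEK each had 0. With 1 or 0 mismatches DEK had 0 elements, and 2 and 4 of its common peaks lay within 50 and 100 nt of the element. Precision was lowest in UACC-62 replicate 1 for the coding region of ANP32E (18 IP reads, 95% interval −3.10 to −1.52).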
